A study of Mus musculus with 1152 samples.

Results

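The genes described here are 8 members of the chemokine system of lymphatic endothelial cells (LECs): the chemokines Ccl21a, Cxcl12, Ccl2, Ccl7, Cxcl1 and Cx3cl1, the atypical receptor Ackr2 and the cytokine Il7. They were chosen by name from the 23168 genes of the deposited table, which held all 8, and they were read over every cell of that table. The cells were taken, in aged c57bl/6 mice, from the lymphatic plexus of the nasopharynx (NPLP), had been sorted as CD31+ PDPN+ cells into wells, and were sequenced by Smart-seq3, a plate-based method that reads whole transcripts. Mucosa from animals of both sexes had been pooled and no label tied a cell to an animal, so the cells formed 1 group and 1 pooled sample, and no other age was compared. The study asked how LECs of this plexus differ with age, and the values below describe the aged cells only.

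Chemokines are small secreted proteins that attract leukocytes carrying the matching receptor. Lymphatic endothelium is known for releasing CCL21, which leads dendritic cells and T cells with CCR7 into the vessel and on to the lymph node. CXCL12 acts through CXCR4, CCL2 and CCL7 attract monocytes through CCR2, CXCL1 attracts neutrophils through CXCR2, and CX3CL1 is made as a membrane protein that ADAM10 and ADAM17 can cut free. ACKR2 does not signal as other chemokine receptors do. It takes up inflammatory CC chemokines, CCL2 and CCL7 among them, and carries them to degradation, and skin and gut lymphatics are a known site of it. IL7 keeps lymphocytes alive, and lymphatic endothelium is one of its known stromal sources.

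A value in the table is the natural log of 1 plus the reads per 10000 reads of a cell, and it is called the level here. Depth differed widely, from 7046 to 10727631 reads per cell with a median of 148202. The shares of cells are therefore given at each cell's own depth and again over the cells that could be thinned to 20000 reads, where 1 read equals 0.5 reads per 10000. Intervals are exact 95% binomial (Clopper-Pearson) intervals and cover counting error only, since there was 1 pool and no replicate. Taken in 12 blocks of 96 consecutive cell numbers, 2 blocks with 38 analysed cells stood apart with median depths of 2042788.5 and 2450279.5 reads, against 52583 to 231193 in the others. All 8 LEC identity genes on the marker list, which include Prox1 and Flt4, were read in 94.8% to 100% of cells. Of the 9 haematopoietic markers analysed, 2 (Cd14 and Cd68) were read in at least 10% of cells, their summed level ran from 0 to 18.5 reads per 10000 with a median of 0, and Ptprc, which encodes CD45, was read in 0.915% of cells. The fibroblast gene Dcn was read in 30.03% of cells although the median over the 6 fibroblast markers was 2.13%, and the epithelial gene Epcam was at 0 in all cells (a floor of 3 cells, used here for genes with no read in any cell, is a share of 0.457%). A read of Ptprc, Lyz2, Cd14 or Dcn was found in 270 cells. Of the 6 blood endothelial markers, Emcn was read in 96.2% of cells, Plvap in 65.9%, Cd34 in 35.5% and Vwf in 10.4%. Flt1 was read in 2.44% and Ackr1 in 1.98%. Whether blood vessel cells were among the sorted cells was not tested. Over the 20981 genes with any read, 9666 were read in at least 10% of cells.

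Ccl21a, Il7 and Ackr2 were read in most cells, Cxcl12 in fewer than that, and the inflammatory chemokines in a minority. At 20000 reads per cell, Ccl21a was read in 73.6% of cells, Il7 in 56.5%, Ackr2 in 53.5%, Cxcl12 in 31.7%, Cxcl1 in 12.3%, Ccl2 in 8.80%, Ccl7 in 6.34% and Cx3cl1 in 2.29%. The median share over the members was 34.5% at own depth, compared with 7.62% over the 20981 genes with any read. No cell held reads of all 8, 6 cells held 7, 3 cells held none, and the most common number was 3, found in 31.1% of cells.

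**Figure D1:**
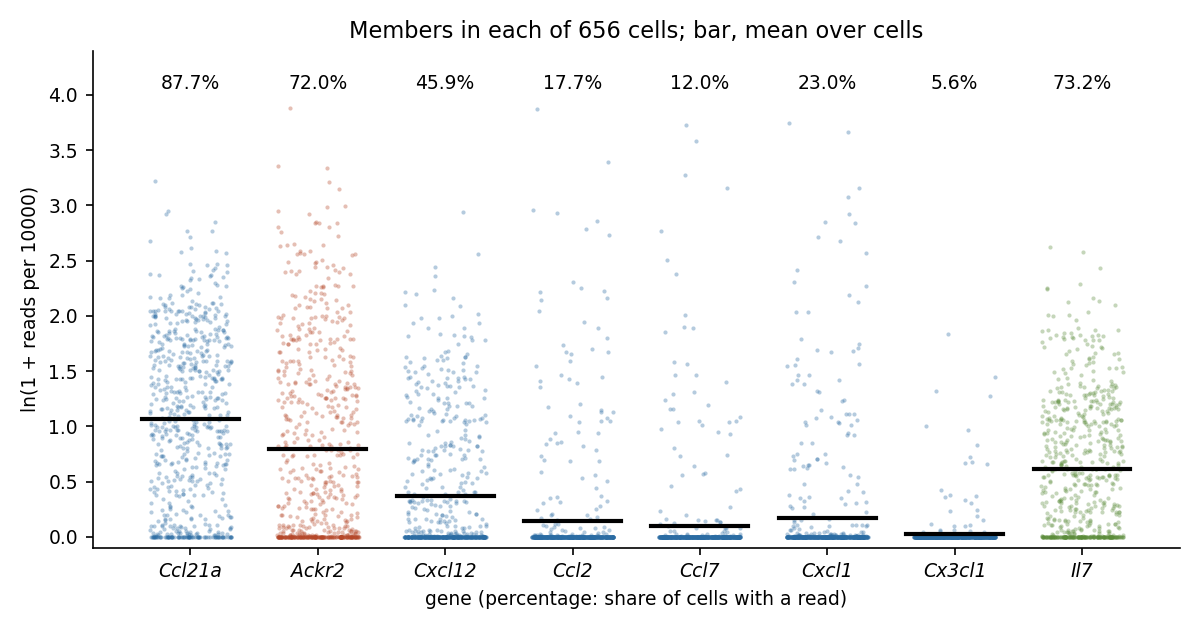
Level of each of the 8 genes in all cells analysed, as ln(1 + reads per 10000) on the y axis; each point is 1 cell, the black bar is the mean over cells and the percentage is the share of cells with a read. Ccl21a, Ackr2 and Il7 filled the range from 0 upward in most cells (means 1.07, 0.79 and 0.61), whereas Ccl2, Ccl7 and Cxcl1 lay at 0 in most cells and reached 3.87, 3.73 and 3.74 in a few.

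Ccl21a, which encodes a form of CCL21, lies at chr4:42772860-42773993 (GRCm38, minus strand, 4 exons). It was read in 87.7% of cells (84.9% to 90.1%). Its level ran from 0 through a median of 1.09 to 3.22 over the cells, the highest value being 23.9 reads per 10000. The 33 cells with the most Ccl21a, 5% of all cells, held 20.4% of its summed linear level, so no small set of cells carried this chemokine.

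Near-identical copies of Ccl21a lie on the same chromosome, and short reads can be split between them. The coding sequence of Ccl21a in the GENCODE M21 annotation differed from those of Ccl21b, Gm10591, Gm13304 and Gm21541 at 2 positions each, an identity of 99.5%. Counted from 1 at the A of the start codon, with the base of Ccl21a first, the differences were T84A and C194T in each of the 4 copies. The stretches around them are shown because these 2 bases are all that tells coding reads of Ccl21a from those of these 4 copies. The sequence of Ccl21c, whose reads are counted below, was not compared. The differing base is in capitals, and each stretch of 61 coding bases is spliced over an intron.
Ccl21a, chr4:42773717-42773865, minus strand: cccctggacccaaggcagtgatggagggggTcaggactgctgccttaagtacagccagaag
Ccl21b, chr4:42255820-42255968, plus strand: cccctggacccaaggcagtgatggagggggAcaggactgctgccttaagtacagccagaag
Ccl21a, chr4:42773513-42773667, minus strand: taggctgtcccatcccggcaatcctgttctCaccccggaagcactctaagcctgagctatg
Ccl21b, chr4:42256018-42256172, plus strand: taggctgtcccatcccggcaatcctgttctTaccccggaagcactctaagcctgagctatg

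Nearly all reads were counted to Ccl21a. It held 112212 reads over all cells, and the reads of Ccl21b, Ccl21c and Gm10591 came to 0.266%, 0.309% and 0.135% of that number, which together made 0.705% of the sum. Reads of a copy were found in 23.3% of cells, and only 1 of those cells lacked a read of Ccl21a. Adding the copies moved the share of cells from 87.7% to 87.8% and the mean level from 1.07 to 1.08. How the counting treated reads that fit more than 1 copy was not given in the sources used here, and 6 further listed copies were not analysed here, so both the division between the copies and their sum are uncertain.

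Cxcl12, the ligand of CXCR4, lies at chr6:117168535-117181367 on the plus strand. It was read in 45.9% of cells (42.02% to 49.8%), and in 31.7% (27.9% to 35.7%) at 20000 reads. Its level ran from 0 through a median of 0 to 2.94, or 17.9 reads per 10000. The top 33 cells held 40.04% of its summed linear level. Its summed level was thus more concentrated in few cells than that of Ccl21a.

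The inflammatory chemokines Ccl2, Ccl7 and Cxcl1 were not read in most cells and were high in a few. Ccl2 and Ccl7 are neighbours on chromosome 11, at chr11:82035571-82037453 and chr11:82045712-82047525, both on the plus strand, and Cxcl1 lies at chr5:90891241-90893115. Ccl2 was read in 17.7% of cells (14.8% to 20.8%), with a median level of 0 and a highest level of 3.87, or 47.04 reads per 10000. Ccl7 was read in 79 cells, or 12.04% (9.65% to 14.8%), with a median of 0 and a highest level of 3.73. Cxcl1 was read in 23.02% of cells (19.8% to 26.4%), with a median of 0 and a highest level of 3.74. The top 33 cells held 87.7% of the summed linear level of Ccl2, 96.3% of that of Ccl7 and 83.5% of that of Cxcl1. Among cells with a read, the median was 0.504 reads per 10000 for Ccl2, 0.542 for Ccl7 and 0.430 for Cxcl1, so even most of these cells were far below the highest ones.

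At least 1 of the 3 inflammatory chemokines was read in 280 cells, or 42.7% (38.9% to 46.6%), and in 23.4% (19.99% to 27.1%) at 20000 reads. Most of these cells held a read of only 1 of them. At own depth, 33.2% of cells held 1, 8.84% held 2 and 0.610% held all 3. Cxcl1 alone was found in 100 cells, Ccl2 alone in 72 and Ccl7 alone in 46, whereas Ccl2 with Cxcl1 was found in 29, Ccl7 with Cxcl1 in 18 and Ccl2 with Ccl7 in 11. With cells holding all 3 included, these pairs met in 33, 22 and 15 cells. The product of the single shares gives 26.7, 18.2 and 13.97 cells. At 20000 reads they met in 12, 5 and 8 cells, against products of 6.16, 4.44 and 3.17. The pairs were thus no rarer than the single shares give.

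**Figure D2:**
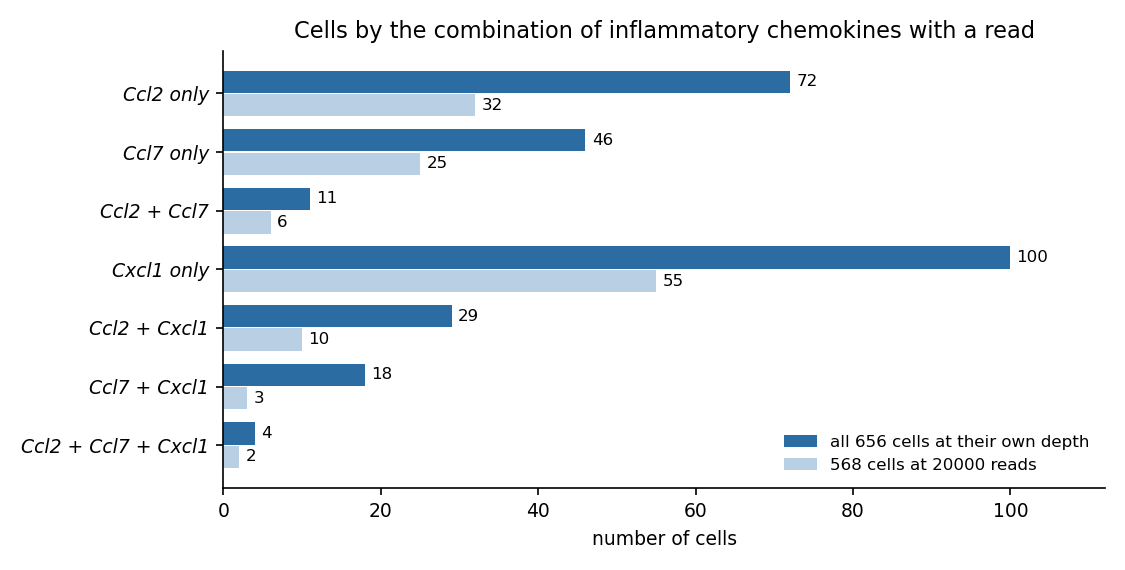
Number of cells (x axis) with each combination of Ccl2, Ccl7 and Cxcl1 reads (y axis), over all cells at their own depth (dark bars) and over the cells thinned to 20000 reads (light bars). At either depth the bars for a single chemokine (72, 46 and 100 cells; 32, 25 and 55 cells) were longer than any bar for a combination.

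The cells at the top of each inflammatory chemokine carried reads of lymphatic genes. The 3 highest cells of Ccl2, of Ccl7 and of Cxcl1 all had Prox1 and Flt4 reads, none had a Ptprc read, and 1 of them, the highest for Ccl7, had 2 reads of Lyz2. The lymphatic reads were few in some, with 4 of Prox1 and 10 of Flt4 among the 25757 reads of the second Cxcl1 cell. Dcn and Cd14 were not examined in these cells, so material of other cell types is not excluded. The single highest cell differed between the 3 chemokines, but their high cells overlapped in part. Only 7 cells exceeded 10 reads per 10000 of Ccl2, 6 of Ccl7 and 11 of Cxcl1. The highest cells of Ccl2 and of Ccl7 each exceeded it for a second chemokine too. So did the third Ccl2 cell, with 18.3 of Ccl2 and 16.1 of Cxcl1. The highest Ccl2 cell held 47.04 reads per 10000 of Ccl2 with 2.70 of Ccl7 and 16.2 of Cxcl1. The highest Ccl7 cell held 40.7 reads per 10000 of Ccl7 with 14.3 of Ccl2 and 0 of Cxcl1. The highest Cxcl1 cell held 41.2 reads per 10000 of Cxcl1 and 0 of both others.

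The promoter of Cxcl1 is shown because this was the member whose level went most closely with a list of NF-kB target genes. It also held 1 form of the motif of that factor. The RefSeq table of promoters (GRCm38.p6) held 5 of the 8 members, namely Ccl21a, Ackr2, Cxcl12, Cxcl1 and Cx3cl1. The 250 bases before each RefSeq start were searched on both strands for the kappaB motif GGANTTTCC and the AP-1 motif TGANTCA, which do not overlap each other. These starts can differ from the GENCODE gene positions given in this text. The window of Cxcl1 ended at chr5:90891244 and that of Cx3cl1 at chr8:94772179, both past the GENCODE starts. The kappaB form GGANTTTCC was found in Cxcl1, with 1 match on the plus strand from 70 to 62 bases before the start. It was in none of the other 4, compared with 1.07% of the 32851 promoters of the table. Other forms of the kappaB motif were not searched, so the other 4 promoters cannot be said to lack one. The AP-1 motif was in none of the 5, compared with 6.75% of all promoters. A match describes letters in this window and not a site in use. The Cxcl1 sequence is given 5′ to 3′ with the kappaB match in capitals.
Cxcl1, chr5:90890995-90891244, plus strand: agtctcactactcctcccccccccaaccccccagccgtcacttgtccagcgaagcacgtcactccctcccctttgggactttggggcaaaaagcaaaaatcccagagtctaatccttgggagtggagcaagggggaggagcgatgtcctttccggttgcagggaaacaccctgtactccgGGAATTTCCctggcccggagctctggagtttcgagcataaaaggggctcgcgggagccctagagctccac

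Cx3cl1, the membrane-bound chemokine (chr8:94772009-94782427, plus strand), was the rarest member. It was read in 37 cells, or 5.64% (4.002% to 7.69%), and in 13 cells, or 2.29% (1.22% to 3.88%), at 20000 reads. Its level ran from 0 through a median of 0 to 1.84, or 5.28 reads per 10000. In contrast, its sheddases were common, Adam10 in 86.4% of cells and Adam17 in 45.3%.

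Ackr2, the scavenging receptor (chr9:121898355-121911074, plus strand), was read in 71.95% of cells (68.3% to 75.4%), and in 53.5% (49.3% to 57.7%) at 20000 reads. Its level ran from 0 through a median of 0.47 to 3.88, or 47.5 reads per 10000. The top 33 cells held 33.5% of its summed linear level. It exceeded 10 reads per 10000 in 40 cells.

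Il7, the lymphocyte survival factor (chr3:7569994-7613760, minus strand), was read in 480 cells, or 73.2% (69.6% to 76.5%), and in 56.5% (52.3% to 60.6%) at 20000 reads. Its level ran from 0 through a median of 0.50 to 2.62, or 12.8 reads per 10000. The top 33 cells held 26.2% of its summed linear level. Ccl21a, Ackr2 and Il7 were read together in 48.3% of cells at own depth and in 25.7% of cells at 20000 reads.

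Full-length reads accumulate with transcript length, so levels were ranked between genes as mean reads per 10000 and kilobase of exon. On this scale Ccl21a was at 3.31, Ackr2 at 0.783, Ccl7 at 0.460, Ccl2 at 0.436, Cxcl1 at 0.321, Il7 at 0.223 and Cx3cl1 at 0.0104, while Cxcl12 lay between these last members, 2.23 times under Il7 and 9.64 times above Cx3cl1. Ccl21a was 4.23 times the next member, Ackr2. Ccl7 and Ccl2 differed by 1.06 times and Ccl2 and Cxcl1 by 1.36 times, and the shares of cells within these pairs had overlapping intervals at 20000 reads. The inflammatory chemokines ranked above Il7 by this mean though they were read in far fewer cells. With the median over cells in place of the mean, 3 of the 7 neighbouring pairs kept this order, since the median of 5 members was 0. Without the length correction 4 did. Il7 then stood above Cxcl1, Cxcl1 above Ccl2 and Ccl2 above Ccl7, so the order within the inflammatory chemokines was reversed. The exons of Cxcl1 in the annotation cover its whole span of 1.875 kb because of a transcript that keeps its introns, so its value per kilobase is a low estimate if spliced transcripts prevail. The lengths of Il7 (5.664 kb) and Cxcl12 (8.176 kb) likewise join the exons of all their annotated transcripts. Their values would be higher if shorter transcripts prevail, so the rank of Il7 under the inflammatory chemokines is uncertain.

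Cells were grouped by their other genes to see whether the members were shared evenly. The members and the other listed chemokines, cytokines and receptors were left out of the clustering. Cluster 1 (31.25% of cells) was led by Gm525, Gpx3, Stab2, Exoc3l2 and Bmp7 and had 6 of 6 Ptx3+ capillary markers raised, so it is called Ptx3+ capillary-like. The haematopoietic markers Cd14 and Fcer1g were also raised in it, with Cd14 in 13.1% of its thinned cells against 3.45% to 6.98% in the other clusters. Cluster 2 (25.8% of cells) was led by Ahsg, Spp1, Kng2, Apoe and Ephx2, had 3 precollecting and 3 downstream-valve markers raised and stays unnamed. Cluster 3 (16.2% of cells) was led by Tppp3, Fbln7, Fndc1, Igfbp3 and Cyp4b1 and is called the Tppp3-Fndc1 cluster. Cluster 4 (15.4% of cells) was led by Anxa8, Pthlh, Ptn, Igfbp6 and Anxa3 with 3 Ptx3- capillary markers among its first 10 genes, while Fndc1, another of these markers, led cluster 3. It is called the Ptn-Anxa3 cluster, and the fibroblast gene Dcn was raised in it, with a read in 31.4% of its thinned cells against 5.75% to 23.9% in the others. Cluster 5 (11.4% of cells) was led by Fxyd2, Gdf15, Gdf10, Neo1 and Slco4a1, had 3 of 6 upstream-valve markers raised (Cldn11, Gata2 and Neo1, but not Itga9, Foxc2 or Gja1) and is called upstream-valve-like, although the downstream-valve markers Cldn11 and Esam were raised too. Blood endothelial markers were raised in all clusters but cluster 3: Plvap in cluster 1, Vwf and Emcn in cluster 2, Vwf and Cd34 in cluster 4 and Cd34 in cluster 5. Median depths were 140957, 184910, 121542, 74034 and 212140 reads in clusters 1 to 5, so shares were compared at 20000 reads.

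Ackr2 differed most between clusters. At 20000 reads it was read in 80.5% (70.6% to 88.2%) of the Tppp3-Fndc1 cluster, 63.95% (52.9% to 74.03%) of the Ptn-Anxa3 cluster and 61.9% (54.3% to 69.1%) of the Ptx3+ capillary-like cluster. It was read in 36.2% (28.6% to 44.4%) of cluster 2 and 22.4% (13.1% to 34.2%) of the upstream-valve-like cluster. The intervals of the 3 higher clusters did not overlap those of the 2 lower ones, and 7 of the 10 pairs of clusters were apart in this way. The mean level ran from 1.31 in the Tppp3-Fndc1 cluster to 0.44 in the upstream-valve-like cluster. Within blocks of cell numbers that held at least 3 thinned cells of both clusters, the Tppp3-Fndc1 cluster had the higher share in 8 of 8. The highest and lowest cluster of each gene were picked from these same cells. A majority of blocks was therefore likely from the start, and the count is a description only.

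Ccl21a and Cxcl12 also differed. Ccl21a was read in 90.8% (82.7% to 95.9%) of the Tppp3-Fndc1 cluster and 78.98% (72.2% to 84.7%) of the Ptx3+ capillary-like cluster, compared with 61.8% (53.6% to 69.6%) of cluster 2 and 65.7% (53.1% to 76.8%) of the upstream-valve-like cluster. For this gene 4 of the 10 pairs were apart, and the Tppp3-Fndc1 cluster exceeded cluster 2 in 6 of 8 blocks. Cxcl12 was read in 44.9% (37.4% to 52.6%) of the Ptx3+ capillary-like cluster and 44.8% (34.1% to 55.9%) of the Tppp3-Fndc1 cluster, but in only 7.46% (2.47% to 16.6%) of the upstream-valve-like cluster. For Cxcl12 7 of the 10 pairs were apart, and the Ptx3+ capillary-like cluster exceeded the upstream-valve-like one in 9 of 9 blocks. Over all clusters its share at own depth was 40.7% in cells without a Ptprc, Lyz2, Cd14 or Dcn read, and the part of such cells in the cluster difference was not tested. The Ptn-Anxa3 cluster set these genes apart from each other, since Ackr2 was read in 63.95% of it and Cxcl12 in 19.8% (11.96% to 29.8%).

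For Il7 and the inflammatory chemokines fewer pairs of clusters were apart, and the low shares of the latter give wide intervals. The share of cells with Il7 ran from 49.3% (36.8% to 61.8%) in the upstream-valve-like cluster to 68.97% (58.1% to 78.5%) in the Tppp3-Fndc1 cluster, and no pair of clusters was apart. For Cxcl1 the shares ran from 4.60% (1.27% to 11.4%) in the Tppp3-Fndc1 cluster to 19.4% (10.8% to 30.9%) in the upstream-valve-like cluster, and for Ccl2 from 3.45% (0.717% to 9.75%) to 12.5% (7.70% to 18.8%) in cluster 2, again with no pair apart. Ccl7 was read in 11.2% (6.65% to 17.3%) of cluster 2 and 1.70% (0.353% to 4.90%) of the Ptx3+ capillary-like cluster, its only pair apart. Cx3cl1 was not read in any cell of the Tppp3-Fndc1 cluster, and the upper bound there, 3.42% at own depth, lay under the 10.7% (4.72% to 19.9%) of the upstream-valve-like cluster. At 20000 reads its intervals overlapped in all clusters, so a difference was not detectable at that depth. The highest cluster exceeded the lowest in 7 of 8 blocks for Il7 and also for Ccl2. It did so in 9 of 12 blocks for Ccl7, 5 of 8 for Cxcl1 and 3 of 8 for Cx3cl1.

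**Figure D3:**
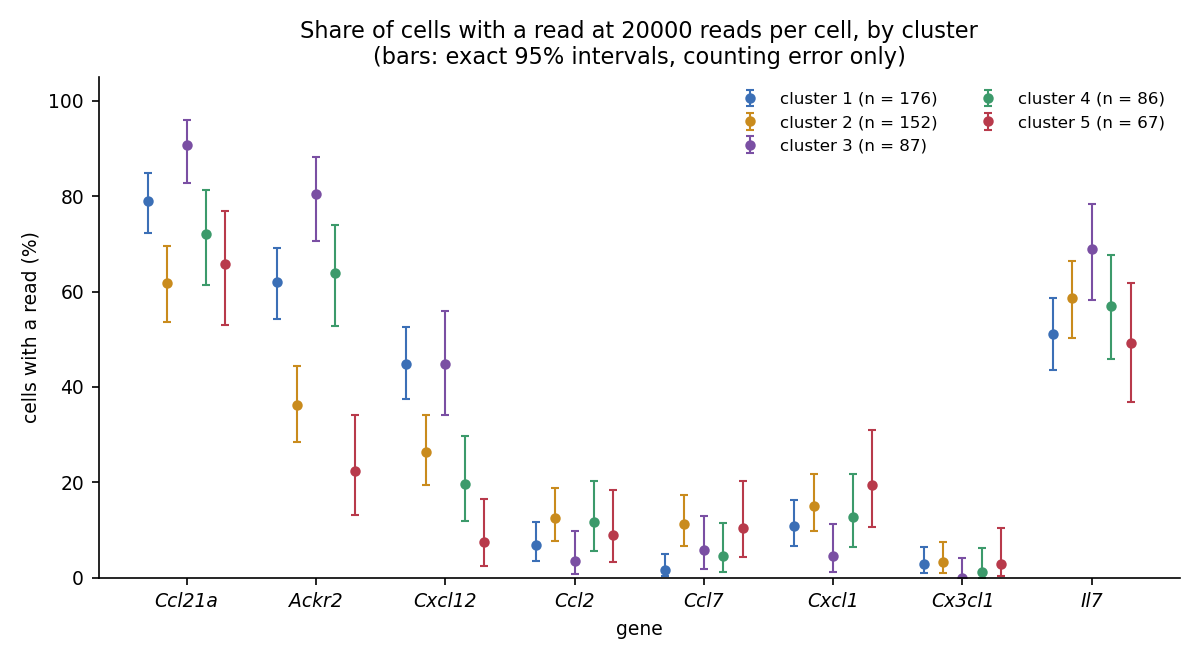
Share of cells with a read (y axis, %) of each gene at 20000 reads per cell in the 5 clusters; points are shares, bars are exact 95% intervals for counting error and n is the number of thinned cells. Ackr2 ran from 22.4% in cluster 5 to 80.5% in cluster 3 and Cxcl12 from 7.46% to 44.9%, whereas the Il7 shares lay between 49.3% and 68.97% with overlapping bars.

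The spread of Ackr2 and Ccl21a between clusters was set beside that of the other genes. The highest minus the lowest cluster mean was at least 0.5 on the natural log scale in 2.15% of the 8297 genes that were read in at least 10% of cells and not used for clustering. Of the members, 7 were read in that many cells and 2 of those passed, Ackr2 with 0.87 and Ccl21a with 0.62. Cxcl12 was under the limit at 0.46 but over it with resolution 1.5 (0.66), 3000 variable genes (0.52) and no regression (0.51), followed in the main clusters by Il7 at 0.28, Cxcl1 at 0.18, Ccl7 at 0.16 and Ccl2 at 0.13. The median of these 7 was 0.28, compared with 0.10 over the 8297 genes. Those genes lack the 2000 variable genes used for clustering, whereas the members were left out of clustering by name. When chemokines were kept, 5 members were among the variable genes. The comparison is therefore tilted toward the members. With 1 pool these differences have no replicate check.

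Across the thinned cells, the members went together only weakly. Spearman's rho between 2 members ran from -0.12 to 0.20 over the 28 pairs. The cells share 1 pool, and a gene with few reads cannot reach a high rho, so these values are a description. Ccl21a and Ackr2 had the highest rho at 0.20, followed by Ackr2 and Cxcl12 at 0.19, Ccl2 and Cx3cl1 at 0.17 and Cxcl12 and Il7 at 0.16. Ackr2 and Ccl2, a ligand that ACKR2 takes up, had the lowest at -0.12. Ackr2 was read in 18 of the 50 thinned cells with Ccl2, and Ccl2 was read in 5.92% of cells with Ackr2 and 12.1% of cells without it. For Ccl7, the other such ligand, the shares were 4.93% and 7.95%. At own depth the gap was small for Ccl2 (17.2% with Ackr2 and 19.02% without) and turned for Ccl7 (12.3% and 11.4%), so no relation to Ackr2 held at both depths for Ccl7.

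The inflammatory chemokines were linked to each other about as weakly. Their rho was 0.13 for Ccl2 and Ccl7, 0.12 for Ccl2 and Cxcl1 and 0.02 for Ccl7 and Cxcl1. Ccl7 was read in 8 of the 50 thinned cells with Ccl2 and 5.41% of cells without it, and Cxcl1 in 12 of those 50 and 11.2% of the rest. The median rho of 0.12 fell to 0.032 over all cells at their own depth and to 0.019 over the thinned cells without a read of Ptprc, Lyz2, Cd14 or Dcn, so the link between these genes rests on the depth and cells chosen.

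Summed over listed genes, the LEC identity genes had positive values with Ackr2 (rho 0.39), Ccl21a (0.35) and Cxcl12 (0.35), less with Il7 (0.13), and had negative values with Ccl7 (-0.16), Cxcl1 (-0.14), Cx3cl1 (-0.06) and Ccl2 (-0.05). The sum is weighted to the abundant genes Mmrn1, Lyve1 and Reln, whereas Prox1 had its highest cluster mean in the upstream-valve-like cluster (1.78, against 1.40 in the Tppp3-Fndc1 cluster), where Ackr2 and Cxcl12 were lowest. The 15 NF-kB target genes, which include Nfkbia and Icam1, had the reverse pattern. Their rho was 0.27 with Cxcl1, 0.15 with Ccl2, 0.12 with Ccl7 and 0.09 with Cx3cl1, and -0.15 with Ackr2 and -0.11 with Cxcl12. A list of 24 genes raised by tissue dissociation moved the same way, with 0.18 for Cxcl1, 0.09 for Ccl2 and -0.18 for Ackr2. Nfkbia is on both lists, so part of this likeness is built in. Nfkbia also weighs most in the NF-kB sum. Its mean linear level over all cells at own depth was 22.07, against 7.94 for Irf1 and 5.35 for Icam1, the next genes. The part of dissociation in the NF-kB values was not tested. The summed haematopoietic markers stayed between -0.08 and 0.05 for all 8 members, and the fibroblast markers between -0.06 and 0.10, with 0.08 for Ccl2 and 0.10 for Cx3cl1.

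**Figure D4:**
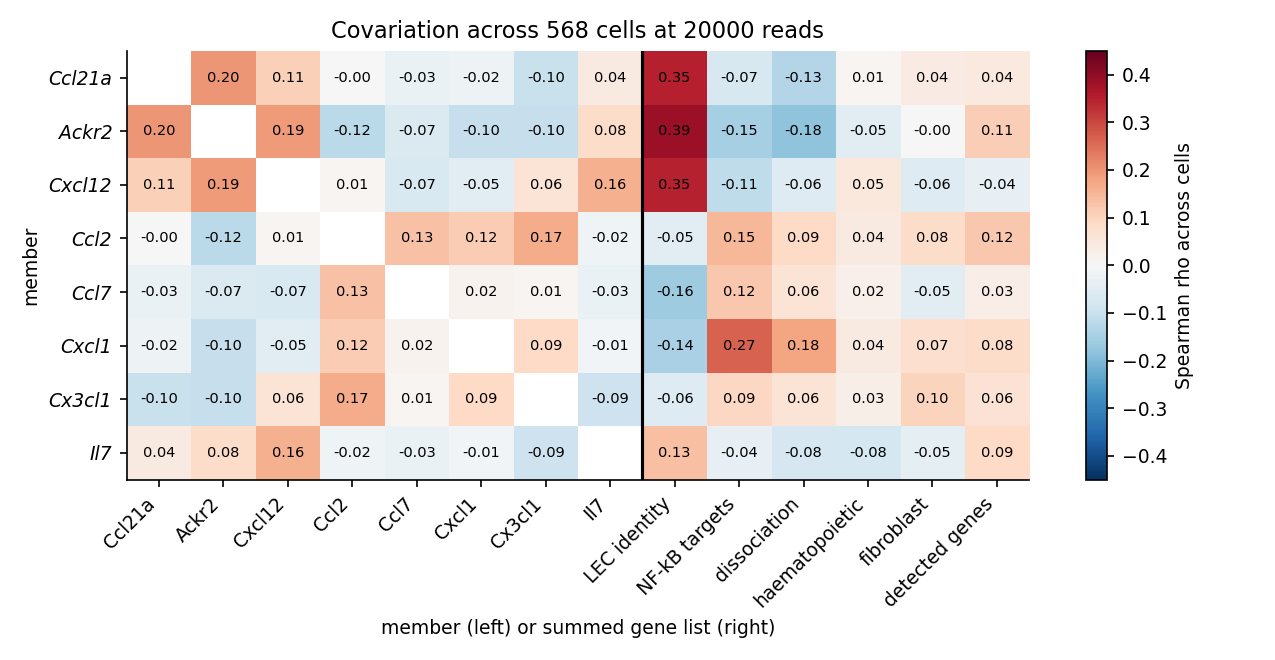
Spearman's rho across the cells thinned to 20000 reads (colour and number) between each member (rows) and the other members or a summed gene list (columns, right of the line). Ccl21a, Ackr2 and Cxcl12 had their highest values with the LEC identity list (0.35, 0.39 and 0.35), and Cxcl1 had its highest value with the NF-kB targets (0.27).

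The genes most like each member were sought among 7780 genes read in at least 10% of the thinned cells. For Ccl21a they were Mmrn1 (rho 0.32), which encodes multimerin 1, Lyve1 (0.31), the hyaluronan receptor of lymphatic capillaries, and Aqp1 (0.29), a water channel. For Ackr2 they were Lyve1 (0.42), Reln (0.37), which encodes reelin, and Aqp1 (0.31). For Cxcl12 they were Reln (0.33), Mmrn1 (0.32) and Igfbp4 (0.30), which encodes a binding protein for insulin-like growth factors. Lyve1, Reln and Mmrn1 are on the LEC identity list, and each was among the nearest genes of 2 of these 3 members, while no gene was common to all 3.

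Cxcl1 stood nearest to Nfkbia (0.23), the inhibitor that NF-kB itself induces, Junb (0.23), an AP-1 subunit, and Igsf8 (0.22). Nfkbia is on the NF-kB and the dissociation lists and Junb on the latter, so these values are not independent of the list values above. Il7 stood nearest to Cavin2 (0.21), a protein of caveolae, Atp8a1 (0.20), a phospholipid flippase, and Pcp4l1 (0.19). The nearest genes of Ccl2 were Cdc123 (0.21), Zbtb11 (0.18) and Smarcd2 (0.17), those of Ccl7 were Igf1 (0.18), Zfp821 (0.18) and Parm1 (0.17), and those of Cx3cl1 were Aatk, Nin and Asb6 (0.17, 0.17 and 0.16). These last values rest on the 50, 36 and 13 thinned cells with a read of the member.

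Of 4 other atypical chemokine receptors, 2 were read in at least 10% of cells, compared with 9666 of the 20981 genes with any read. Ackr3, which takes up CXCL12, was read in 81.6% (78.4% to 84.5%) of cells and Ackr4, which takes up CCL21 and CCL19, in 11.7% (9.38% to 14.5%), while Ccrl2 was read in 6.10% and Ackr1 in 1.98%. Ackr3 followed Ackr2 in its peak, with 97.7% (91.9% to 99.7%) of the Tppp3-Fndc1 cluster at 20000 reads. It departed from Ackr2 in the Ptx3+ capillary-like cluster, where it was read in 32.4% (25.5% to 39.8%) and Ackr2 in 61.9%, and in the upstream-valve-like cluster, where it was read in 71.6% (59.3% to 81.99%) and Ackr2 in 22.4%. Cxcl12 was read about equally often in the clusters with the lowest and the highest share of Ackr3 (44.9% and 44.8%). Ackr4 was read in 12.8% (6.56% to 21.7%) of the Ptn-Anxa3 cluster and 11.8% (7.17% to 18.1%) of cluster 2, where it was among the 10 leading genes, and in 1.49% to 3.45% of the others. Among thinned cells, Ackr4 was read in 4.31% of those with Ccl21a and 13.3% of those without it.

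**Figure D5:**
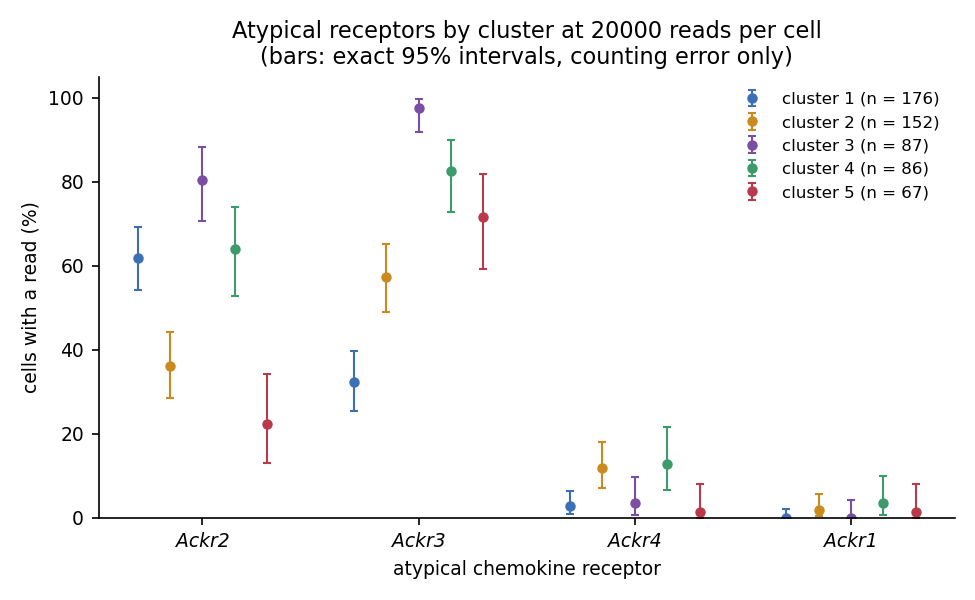
Share of cells with a read (y axis, %) of Ackr2, Ackr3, Ackr4 and Ackr1 at 20000 reads per cell in the 5 clusters; points are shares, bars are exact 95% intervals for counting error and n is the number of thinned cells. Ackr2 was lowest in cluster 5 (22.4%) and Ackr3 in cluster 1 (32.4%), and both were highest in cluster 3 (80.5% and 97.7%).

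The signalling receptors analysed were read in few cells, with Il2rg apart, and Il7r and Cxcr2 were not analysed here. Ccr7 was read in 0.305% of cells, Cxcr4 in 0.457% and Cx3cr1 in 0.610%, and Ccr2 was at 0 in all cells, under the same floor of 0.457%. Il2rg, the common gamma chain that IL7 and other cytokines share, was read in 76.8% (73.4% to 80.01%). At 20000 reads it was found in 63.9% of the cells with Il7 and 59.9% of those without it.

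Other chemokines were mostly read in few cells, and 9 CC and 9 CXC chemokines on the lists were not analysed here. Among the 20981 genes with any read, 9666 were read in at least 10% of cells. Of 9 other CC chemokines analysed, Ccl27a passed 10% of cells (14.8%, 12.2% to 17.7%), followed by Ccl25 (5.79%) and Ccl11 (1.22%), and Ccl28 was at 0. Of 5 other CXC chemokines, Cxcl17 (17.1%, 14.3% to 20.2%) and Cxcl16 (11.6%, 9.24% to 14.3%) passed it, followed by Cxcl10 (2.44%) and Cxcl2 (1.22%). Cxcl2, the neighbour of Cxcl1 on chromosome 5 with the same receptor, was thus read in far fewer cells than the 23.02% of Cxcl1.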

How the data were processed

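The authors aligned the Smart-seq3 reads to mm10 with STAR, counted them per gene with featureCounts (Subread) and normalised them in Seurat 4.1.0, per the submitters' processing notes and the methods. The stated filters were at least 2000 genes and at most 10% mitochondrial reads per cell. The deposited values are natural log values, ln(1 + reads per 10000): undoing the log gave a sum of 10000 in every cell, although the methods name log2. Whole reads were recovered for 100% of values within 0.01 reads. They are reads and not molecules, so PCR copies were not collapsed, and neither strand use nor the treatment of reads that fit several genes was given in the sources used here. Of 1152 labelled cells, 656 were analysed, and 496 were not analysed here.

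The cells formed 1 pool, so no test between cells was run. The members and gene lists were chosen with earlier results of these data known. Named genes were the members, the 3 genes most like each by Spearman's rho, the genes that lead each cluster and listed genes. Thinning to 20000 reads kept 568 cells, since 88 had fewer, and every rho is over those 568 unless own depth is named. The clusters 1 to 5 held 205, 169, 106, 101 and 75 cells. Clusters were made in R 4.3.3 with Seurat 5.3.0 from 15 principal components, at the lowest resolution in steps of 0.1 that gave at least 5 clusters, and were named from markers only, so names may differ from those of the study. Doublets were not called, because cells had been sorted into wells. Other values were computed with python 3.11.15, numpy 2.4.6, scipy 1.17.1 and pandas 2.3.3. Read recovery, thinning, clustering and the search for like genes were tested on simulated data.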

Additional observations from a re-analysis of the deposited data

How the results depend on the processing

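A share was held to have moved when it left the exact interval of the reported value, and another value when it changed by more than 1.5 times. The share of cells with Ccl2, Ccl7 or Cxcl1 (42.7%) moved to 15.1% when a level above 1 was required, 22.4% with at least 3 reads, 23.4% at 20000 reads and 50.9% in cells with at least 4000 genes. The median share over the members (34.5%) moved to 12.8%, 21.8%, 22.01% and 42.1% under the same settings, and to 30.7% without cells holding a Ptprc, Lyz2, Cd14 or Dcn read. Of the 7 neighbouring pairs in the order per kilobase, 3 kept their order with the median over cells and 4 with no length correction. In the latter, Il7 turned against Cxcl1, Cxcl1 against Ccl2 and Ccl2 against Ccl7. The median rho between Ccl2, Ccl7 and Cxcl1 (0.12) moved to 0.032 at own depth and 0.019 without the marker cells. The median difference of the members between clusters (0.23) moved to 0.37 at resolution 1.5, where there are more clusters. For single members, 32 of 48 shares and 12 of 24 levels moved. Leaving out the 2 deepest blocks of cell numbers, an alternative chosen after seeing the data, gave 41.9% for the inflammatory chemokines and 33.9% for the median share. Causes were not tested beyond depth, which sets how many cells show a read of a low gene. No paired analysis was possible because there was 1 group and no test.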

Other observations

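Other cytokines and the matrix that holds chemokines were also read. The counts below stand beside 9666 of the 20981 genes with any read, which were read in at least 10% of cells. Of the 9 stromal cytokines analysed beside Il7, 3 were read in at least 10% of cells, namely Tgfb1 (37.96%), Csf1 (29.3%), the macrophage growth factor, and Flt3l (29.1%), which supports dendritic cells. Il15 was read in 8.08%, Kitl in 6.86% and Il6 in 5.95%. Il6 was among the 10 genes that led the upstream-valve-like cluster, where it was read in 10.7% (4.72% to 19.9%) of cells. A leading gene had to be read in at least 10% of a cluster, and Il6 was read in 3.55% to 7.92% of the others. In the upstream-valve-like cluster its upper quartile was 0 and its highest level 3.45, so few cells carried its mean. Heparan sulfate chains bind CCL21 and other chemokines at the cell surface, and 13 of the 14 genes on that list were read in at least 10% of cells, led by Hspg2 (91.8%), which encodes perlecan, and followed by Sdc1 (58.5%) and Sdc3 (53.4%), which encode syndecans.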
